A study of Mus musculus with 59 samples.

Results

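Slow, or type I, muscle fibers contract with their own set of sarcomere proteins, and the genes described here encode 10 of them or their close partners: Myh7, Myh7b, Tnnc1, Tnnt1, Tnni1, Myl2, Myl3, Tpm3, Atp2a2 and Csrp3. They were taken by symbol from tables of 24972 genes, and all 10 were present in the soleus table and in the gastrocnemius table. All 10 also passed the filter on low values in both muscles, where 12067 genes (soleus) and 14033 genes (gastrocnemius) were tested. In skeletal muscle slow fibers carry most of the tonic load of postural muscles such as the soleus, whereas the mouse gastrocnemius is made mainly of fast fibers. Most slow isoforms of the mouse are shared with the heart, where Myh7 is the fetal ventricular myosin. Fiber type follows motor nerve activity through calcium and calcineurin, and new fibers formed after injury begin with developmental myosins before adult slow or fast isoforms take over.

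All mice were male C57BL/6. Gastrocnemius came from mice that were 6 ± 1 months old when the CTX experiment began, in 5 groups of 3 libraries. These were muscle 2 days after injection of the myonecrotic snake toxin cardiotoxin (CTX, 10 µM) into the left hind limb with hydroxycitrate (HC, an inhibitor of ATP citrate lyase) in the diet afterwards (CTX-HC 2 DPI) or without it (CTX 2 DPI), muscle 30 days after injury with HC (CTX-HC 30 DPI) or without it (CTX 30 DPI), and uninjected muscle (C). By the study's methods, uninjected mice were split on day 28 after the first injections into C and the 2 DPI groups. The 2 DPI mice were therefore injured later than the 30 DPI mice, and HC lasted 2 days rather than 30. Soleus was collected without injury from mice given HC at 7.5 g per kg of diet from 20 weeks of age (HC, 5 libraries) or the diet alone (Ut, 5 libraries), killed at 41 weeks after a 16 h fast. The study's account of the CTX experiment treats each sample as 1 mouse, but the labels do not name the animals, so p-values measure the spread between libraries. The toxin was given in the belly of the limb so as to reach both calf muscles, and the labels do not say how much of each gastrocnemius sample lay inside the damaged region.

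Values are the deposited counts after scaling by median of ratios, called normalized values below. Estimated depth was 1.60e+07 to 3.49e+07 reads in gastrocnemius and 8.93e+06 to 1.12e+07 reads in soleus. Tests used limma on log2(value + 1), with Benjamini-Hochberg adjustment over all genes tested and a call at an adjusted p under 0.05, and each log2 fold change is given with its standard error (SE) on that scale. In gastrocnemius the 12 pan-muscle genes, among them Acta1, Ckm and Ttn, summed to 2.88e+06 to 4.91e+06 in CTX-HC 2 DPI, 5.54e+06 to 7.86e+06 in CTX 2 DPI, 5.36e+06 to 7.75e+06 in CTX-HC 30 DPI, 5.58e+06 to 8.24e+06 in CTX 30 DPI and 6.63e+06 to 8.55e+06 in C. Cardiac markers (Myh6, Nppa, Myl7, Tnni3, Mybpc3 and Ryr2) summed to at most 121 in any gastrocnemius library and were at 0 for Myl7 in all 15. Myh6, which lies beside Myh7 and is very similar to it in sequence, reached 79.8 in gastrocnemius and 305 to 547 in soleus. How reads shared by the 2 genes, or by Tpm3 and its pseudogene copies, were assigned is not given in the sources used here. Library 3 of CTX 2 DPI had a macrophage marker sum of 1929, inside the range of 809 to 3695 in C and below 10347 and 7041 in the other 2 libraries of its group. Library 3 of CTX-HC 30 DPI stood apart in the other direction, with 6880 for that sum against 755 and 807 in its group, with the embryonic myosin Myh3 at 6722 and with the fast myosin Myh4 at 425246. Comparisons that use these libraries are also given without them. Library 1 of CTX 30 DPI also lay above its group for the macrophage marker sum, at 5429 against 583 and 609. Myh7 is given without that library as well.

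Promoter windows of the 3 members that fell in CTX-HC 2 DPI against C are shown to give the sequence context of genes that moved together. They run from 250 bases before to 50 bases after an annotated start, come from RefSeq on GRCm38.p6 and are written 5′ to 3′ on the gene's strand. Entries were found for 9 of the 10 members (all but Atp2a2), and the first entry of each gene was used. Capitals mark E-boxes (CANNTG), MCAT elements (CATTCC, which reads GGAATG on the other strand), CArG boxes and MEF2 sites, searched on both strands.
Myh7 (chr14:54994577-54994876, minus strand): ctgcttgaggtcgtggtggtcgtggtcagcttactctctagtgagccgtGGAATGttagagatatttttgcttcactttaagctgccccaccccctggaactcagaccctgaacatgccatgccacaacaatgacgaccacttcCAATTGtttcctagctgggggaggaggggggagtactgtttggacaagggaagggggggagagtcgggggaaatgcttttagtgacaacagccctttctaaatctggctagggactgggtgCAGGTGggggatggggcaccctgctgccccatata
Tnnt1 (chr7:4515926-4516225, minus strand): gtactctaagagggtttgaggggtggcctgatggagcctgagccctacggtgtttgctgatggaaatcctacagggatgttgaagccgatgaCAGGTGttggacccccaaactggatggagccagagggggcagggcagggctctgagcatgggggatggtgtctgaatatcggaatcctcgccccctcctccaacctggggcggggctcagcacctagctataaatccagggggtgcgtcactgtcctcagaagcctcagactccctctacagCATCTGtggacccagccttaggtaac
Myl3 (chr9:110763428-110763727, plus strand): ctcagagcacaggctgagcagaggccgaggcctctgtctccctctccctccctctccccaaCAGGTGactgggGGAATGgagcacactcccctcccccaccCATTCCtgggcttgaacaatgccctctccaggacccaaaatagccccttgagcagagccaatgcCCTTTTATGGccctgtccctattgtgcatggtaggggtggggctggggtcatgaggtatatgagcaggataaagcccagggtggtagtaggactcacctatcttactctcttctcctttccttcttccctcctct
The Myh7 window held 2 E-boxes and 1 MCAT element, the Tnnt1 window 2 E-boxes, and the Myl3 window 1 E-box, 2 MCAT elements and 1 CArG box, with 0 overlaps between different motifs. An E-box was in all 9 windows of the members and in 72.3% of 32851 promoters of the same length. An MCAT element was in 3 of the 9 (Myh7, Tnnc1 and Myl3) against 14.7% of all promoters, a CArG box in 1 of the 9 against 1.63%, and a MEF2 site in 0 of the 9 against 3.19%. In entry 2 of Myh7, a window at another annotated start, 0 MCAT elements were found. A match is a description of these letters and not evidence of a bound site.

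The first comparison asked how the slow genes stood 30 days after injury. Myh7 (chr14:54970684-54994626, minus strand, GRCm38), the slow myosin heavy chain, had 36997, 8868 and 15566 normalized values in CTX 30 DPI, against 7378, 859 and 883 in C. With HC the 3 libraries of CTX-HC 30 DPI had 42549, 6810 and 22740. All CTX 30 DPI libraries were above all C libraries, whereas CTX-HC 30 DPI overlapped C because library 1 of C (7378) was above library 2 of CTX-HC 30 DPI (6810). The log2 fold change of Myh7 was 3.28 (SE 0.86) for CTX 30 DPI against C, with an unadjusted p of 0.00217 and an adjusted p of 1.00 in limma. For CTX-HC 30 DPI against C it was 3.40 (SE 0.86), with an unadjusted p of 0.00165 and an adjusted p of 1.00 in limma. Myh7 at day 30 was therefore about 10 times its uninjured level by fold (9.69-fold and 10.6-fold), and in neither group did the difference pass the test over all genes.

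**Figure D1:**
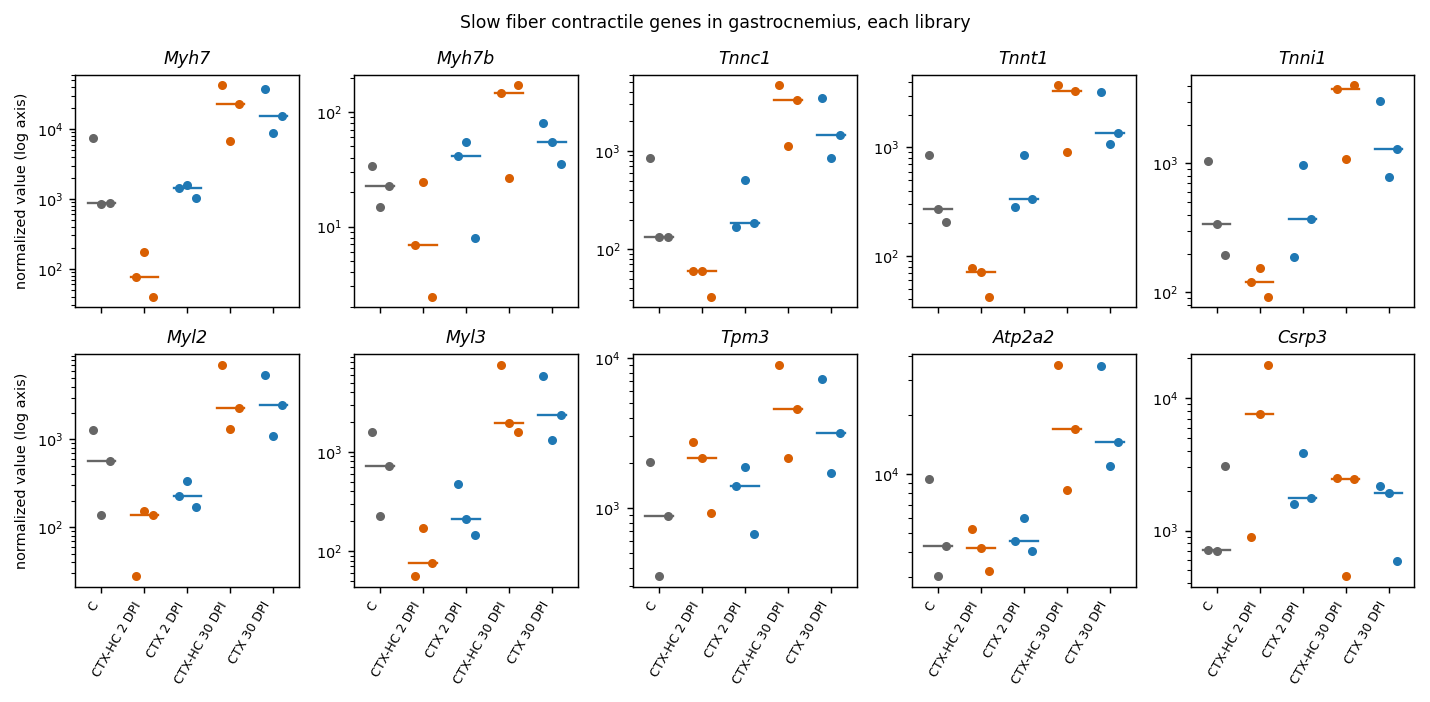
Normalized values (log axes) of the 10 genes in each gastrocnemius library, with groups along the x axis, a point for each library and a bar at the group median. Myh7 lay between 6810 and 42549 in CTX-HC 30 DPI, against 40.0 to 177 in CTX-HC 2 DPI, and Csrp3 had its highest values in CTX-HC 2 DPI.

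All 10 members had positive log2 fold changes against C at day 30 in both groups, the smallest for Csrp3 (0.29 with HC and 0.22 without), whose values overlapped widely. Of the 10 members, 0 passed in either comparison with C, as did 0% of the 14033 genes tested. At an unadjusted p under 0.05, limma gave 8 members and 437 of all genes for CTX 30 DPI against C, and 9 members and 388 of all genes for CTX-HC 30 DPI against C. By the study's own threshold (unadjusted p no higher than 0.05, with an absolute log2 fold change no smaller than 1), 8 members were higher in CTX 30 DPI, where 0.969% of all genes were, and 9 in CTX-HC 30 DPI, where 0.941% were. The median log2 fold change over the members was 2.01 in CTX 30 DPI and 2.48 in CTX-HC 30 DPI, beside medians over all genes of -0.01 and -0.00. Both comparisons share the C libraries. No overlap with C was seen for 4 members in CTX 30 DPI (Myh7, Myh7b, Tnnt1 and Atp2a2; 5.09% of all genes) and for 5 in CTX-HC 30 DPI (Tnnc1, Tnnt1, Tnni1, Myl2 and Tpm3; 4.72% of all genes).

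Among the troponins, which bind calcium and move tropomyosin off actin, Tnnc1 (slow and cardiac troponin C, chr14:31208312-31211729) had 4697, 1121 and 3279 in CTX-HC 30 DPI and 3452, 843 and 1466 in CTX 30 DPI, against 853, 133 and 132 in C. Its log2 fold change was 3.38 (SE 0.76) with HC and 2.71 (SE 0.76) without, both against C. Library 1 of C was the source of the overlap with CTX 30 DPI. Tnnt1 (slow troponin T, chr7:4504570-4516382) had 3751, 915 and 3301 in CTX-HC 30 DPI and 3223, 1071 and 1346 in CTX 30 DPI, against 848, 271 and 207 in C. Both day 30 groups were above all C libraries. Tnni1 (slow troponin I, chr1:135779434-135810989) had 3810, 1087 and 4059 in CTX-HC 30 DPI and 3047, 782 and 1292 in CTX 30 DPI, against 1044, 339 and 196 in C. The HC group cleared C for this gene by a narrow margin (1087 over 1044).

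Among the light chains, Myl2 (slow regulatory light chain, chr5:122100951-122113472) had 7076, 1328 and 2310 in CTX-HC 30 DPI and 5422, 1096 and 2483 in CTX 30 DPI, against 1294, 137 and 562 in C. Myl3 (slow essential light chain, chr9:110741861-110769798) had 7545, 1976 and 1569 in CTX-HC 30 DPI and 5868, 1304 and 2354 in CTX 30 DPI, against 1599, 225 and 722 in C. In both genes library 1 of C reached the lowest day 30 values of at least 1 group. Myh7b (chr2:155611212-155634307), a second slow-type myosin that hosts a microRNA and is little translated in muscle, stayed at low levels, with 147, 26.7 and 172 in CTX-HC 30 DPI and 79.5, 55.2 and 35.1 in CTX 30 DPI, against 33.9, 14.9 and 22.6 in C.

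Tpm3, the slow tropomyosin gene (chr3:90072649-90100902), had 9003, 2142 and 4592 in CTX-HC 30 DPI and 7268, 1701 and 3144 in CTX 30 DPI, against 2013, 350 and 879 in C. Atp2a2, the SERCA2 calcium pump of slow and cardiac muscle (chr5:122453513-122502225), had 35958, 8319 and 17021 in CTX-HC 30 DPI and 35587, 10970 and 14596 in CTX 30 DPI, against 9462, 3018 and 4315 in C. Its log2 fold changes against C were 1.79 with HC and 1.84 without (SE 0.55 each), and library 1 of C overlapped the HC group only. Csrp3, the muscle LIM protein of the Z-disc (chr7:48830398-48848033), had 2502, 451 and 2467 in CTX-HC 30 DPI and 2159, 1912 and 585 in CTX 30 DPI, against 711, 699 and 3085 in C. Its log2 fold changes were 0.29 and 0.22 (SE 1.01 each), and its groups overlapped.

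Libraries of 1 group differed as a block. In CTX 30 DPI, library 1 had the highest value of all 10 members and library 2 the lowest of 8, and in CTX-HC 30 DPI library 1 was highest for 8 and library 2 lowest for 9. In C, library 1 was highest for 9 members and library 2 lowest for 7. The highest library of a group was a median of 5.53 times the lowest in C, 4.00 times in CTX 30 DPI and 4.57 times in CTX-HC 30 DPI, compared with 1.68 times in soleus HC and 1.61 times in soleus Ut. Library 1 of CTX 30 DPI had a macrophage marker sum of 5429 and a fibroblast marker sum of 57488, and library 1 of CTX-HC 30 DPI had 755 and 15526. Adipocyte markers summed to 35.5 to 1023 in CTX-HC 30 DPI and 26.2 to 102 in CTX 30 DPI, against 13.2 to 15.9 in C. The part of any of these markers in the slow gene values was not tested. In these bulk samples fewer or more cells of a type and less or more RNA per cell cannot be told apart.

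The libraries carry numbers of 50 to 63 except for library 2 of C and library 2 of CTX 30 DPI, which belong to a separate and higher number series. Within the numbers 50 to 63 the Myh7 log2 difference between CTX 30 DPI and C was 3.23 (2 libraries each), and within the higher series it was 3.37 (1 library each). Within the lower numbers the log2 differences of the members between these groups ran from -0.40 (Csrp3) to 3.23 (Myh7), with a median of 1.97. For CTX-HC 30 DPI, which has only lower numbers, the Myh7 log2 difference from the 2 such C libraries was 2.88. Without library 3 of CTX-HC 30 DPI, the Myh7 log2 fold change of that group against C was 3.26. Without library 1 of CTX 30 DPI, the Myh7 log2 fold change of CTX 30 DPI was 2.73 against C and 3.17 against CTX 2 DPI.

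At day 2, 3 of the 10 members passed as lower against C in the group given HC, and 0 passed in the group without it. Between these 2 injured groups 0 members passed. Myh7 had 77.2, 177 and 40.0 in CTX-HC 2 DPI, against 7378, 859 and 883 in C, and no library overlapped. It fell by 4.42 on the log2 scale (SE 0.86, limma adjusted p = 0.0171). Tnnt1 had 76.9, 72 and 42.3 in CTX-HC 2 DPI, against 848, 271 and 207 in C, and fell by 2.53 (SE 0.65, limma adjusted p = 0.0355). Myl3 had 55.7, 170 and 75.4 in CTX-HC 2 DPI, against 1599, 225 and 722 in C, and fell by 2.82 (SE 0.79, limma adjusted p = 0.0435). These 3 of 10 members were called lower, where 4.59% of all genes tested were. Groups did not overlap for those 3, Tnnc1 and Tnni1, and 25.2% of all genes were lower without overlap.

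Tnnc1 had 59.3, 59.2 and 32.8 in CTX-HC 2 DPI, against 853, 133 and 132 in C (log2 fold change -2.32, SE 0.76, limma adjusted p = 0.0629). Tnni1 had 119, 153 and 92.6, against 1044, 339 and 196 in C (-1.78, SE 0.73). Myl2 had 27.6, 152 and 138, against 1294, 137 and 562 in C (-2.46, SE 0.88), and library 2 of C lay inside the HC range. Tpm3, Atp2a2 and Csrp3 did not follow these genes. Tpm3 had 2740, 2139 and 925 in CTX-HC 2 DPI, against 2013, 350 and 879 in C, and Atp2a2 had 5271, 4225 and 3209, against 9462, 3018 and 4315 in C. Csrp3 had 897, 7635 and 17854 in CTX-HC 2 DPI, against 711, 699 and 3085 in C (log2 fold change 2.10, SE 1.01, limma adjusted p = 0.152).

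Other tissue signals moved with this comparison. The macrophage marker sum was 5859 to 25331 in CTX-HC 2 DPI, against 809 to 3695 in C, and 2 of its 8 genes (Cd14 and Cd68) passed as higher. Of the 12 pan-muscle genes, Cacna1s and Pgam2 passed as lower, and the median over the list was -0.99. Scaling each library to the mean log2 of the pan-muscle genes moved all log2 fold changes of this comparison by 1.00. On that scale Myh7 remained lower (-3.42, limma adjusted p = 0.0153), Tnnt1 and Myl3 no longer passed (adjusted p = 0.115 and 0.0834), and Csrp3 passed as higher (3.11, adjusted p = 0.0242). The split of all called genes went with it, at 7379 higher and 69 lower with the muscle scaling and 749 higher and 644 lower without. The count of 3 members fell to 0 without library 1 of C, without library 2 of C or without library 1 of CTX-HC 2 DPI, and to 1 without library 2 or 3 of CTX-HC 2 DPI. The number called over all genes also moved widely when libraries were left out, and its range is given with the alternatives below. Myh7 kept a log2 fold change of -4.97 to -3.40 in these refits, with limma adjusted p from 0.0278 to 0.0847.

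In CTX 2 DPI without HC, Myh7 had 1414, 1558 and 1015, against 7378, 859 and 883 in C, and the groups overlapped. Its log2 fold change was -0.44 (SE 0.86, limma adjusted p = 0.810). The 10 members had log2 fold changes between -1.38 (Myl3) and 0.93 (Csrp3), with groups overlapping for all of them. In limma 0 members passed, and 0% of all genes did. At an unadjusted p under 0.05 the counts were 0 members and 2095 genes. Without library 3 of CTX 2 DPI, which had an uninjured level of macrophage markers, the Myh7 log2 fold change was -0.26 and again 0 members passed. With library 3 of CTX-HC 30 DPI left out as well, 33 genes passed over the whole table, 27 higher and 6 lower, and 0 of them were members.

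Between the 2 injured groups at day 2, Myh7 was lower in every HC library, with 77.2, 177 and 40.0 in CTX-HC 2 DPI, against 1414, 1558 and 1015 in CTX 2 DPI. The log2 fold change was -3.98 (SE 0.86, unadjusted p = 0.000468, limma adjusted p = 0.486). Tnnt1 had 76.9, 72 and 42.3 in CTX-HC 2 DPI, against 280, 847 and 332 in CTX 2 DPI (log2 fold change -2.78, SE 0.65, unadjusted p = 0.000895, limma adjusted p = 0.523). Groups did not overlap for 5 members (Myh7, Tnnc1, Tnnt1, Tnni1 and Myl2), all lower with HC, where 7.35% of all genes were. In limma 0 members passed (0% of all genes), and 4 members and 1005 genes had an unadjusted p under 0.05. By the study's threshold 4 members were lower, where 0.855% of all genes were. The macrophage marker sum was 5859 to 25331 in CTX-HC 2 DPI and 1929 to 10347 in CTX 2 DPI, and its part in these values was not tested. The pan-muscle sum was 2.88e+06 to 4.91e+06 in CTX-HC 2 DPI, against 5.54e+06 to 7.86e+06 in CTX 2 DPI, with no overlap. Scaling to the pan-muscle genes moved all log2 fold changes of this comparison by 0.73, to -3.26 for Myh7 and -1.04 for Tnni1 (limma adjusted p = 0.117 and 0.316). Without library 3 of CTX 2 DPI, the Myh7 log2 fold change was -4.16.

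**Figure D2:**
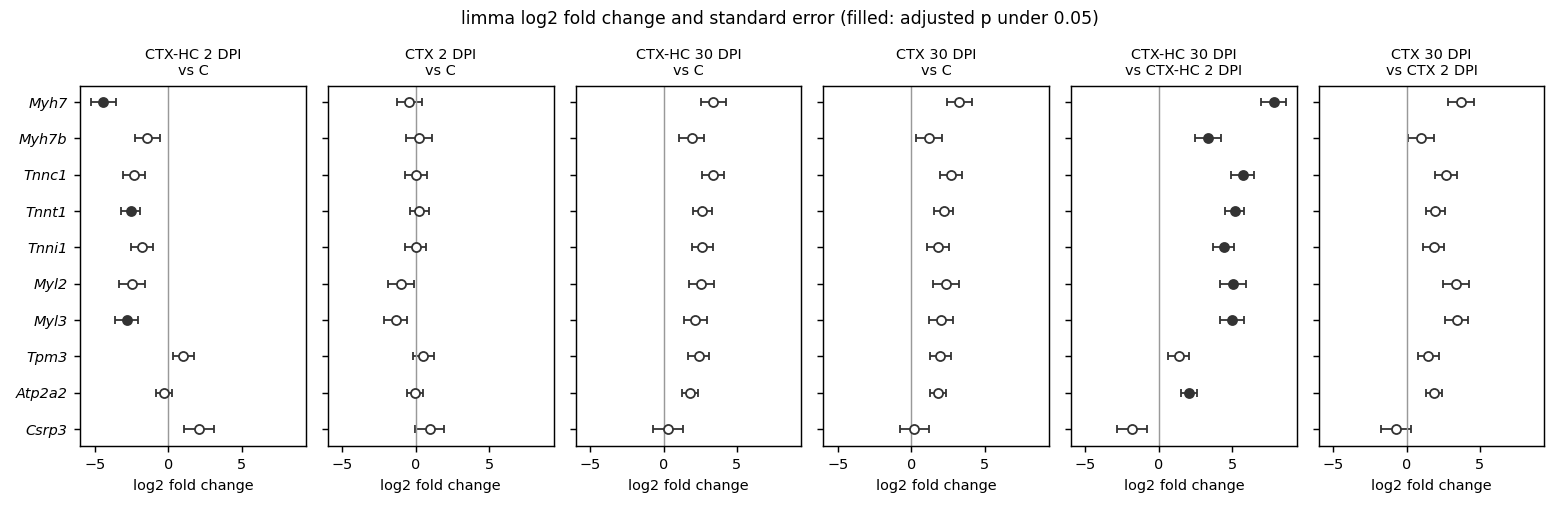
Log2 fold change (x axis) of each member (rows) in 6 comparisons of gastrocnemius groups, with limma standard errors as bars and filled points at an adjusted p under 0.05. The filled points are the 3 members lower in CTX-HC 2 DPI against C and the 8 members higher in CTX-HC 30 DPI against CTX-HC 2 DPI, from 2.05 for Atp2a2 to 7.82 for Myh7.

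Day 30 was next compared with day 2 within each diet, and the HC group gave the largest log2 fold change of Myh7 in any comparison. Myh7 had 42549, 6810 and 22740 in CTX-HC 30 DPI, against 77.2, 177 and 40.0 in CTX-HC 2 DPI, and rose by 7.82 on the log2 scale (SE 0.86, 226-fold, limma adjusted p = 0.00118). In all, 8 of 10 members rose, where 4.20% of all genes did, and groups did not overlap for the same 8, where 11.4% of all genes were higher without overlap. Tnnc1 rose by 5.70 (SE 0.76), Tnnt1 by 5.16 (SE 0.65), Tnni1 by 4.41 (SE 0.73), Myl2 by 5.04 (SE 0.88) and Myl3 by 4.98 (SE 0.79). Myh7b rose by 3.33 (SE 0.87, limma adjusted p = 0.0355) and Atp2a2 by 2.05 (SE 0.55, limma adjusted p = 0.0378). Tpm3 (1.34, SE 0.72) and Csrp3 (-1.82, SE 1.01) did not pass. The median over members was 4.70, beside 0.01 over all genes.

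The macrophage marker sum ran the other way, at 755 to 6880 in CTX-HC 30 DPI and 5859 to 25331 in CTX-HC 2 DPI, and the pan-muscle sum the same way. Relative to the pan-muscle genes 6 members still passed as higher, where 0.371% of all genes did, with Myh7b and Atp2a2 lost (limma adjusted p = 0.0743 and 0.168). Without library 3 of CTX-HC 30 DPI the count stayed at 8, where 2366 of 13908 genes rose, and Myh7 rose by 7.68. A fit of only these 2 groups called 4 members among 24 genes.

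In the untreated group Myh7 had 36997, 8868 and 15566 in CTX 30 DPI, against 1414, 1558 and 1015 in CTX 2 DPI, with no overlap. The log2 fold change was 3.72 (SE 0.86, unadjusted p = 0.000822, limma adjusted p = 0.0821). Myl3 had 5868, 1304 and 2354 in CTX 30 DPI, against 477, 211 and 147 in CTX 2 DPI (3.41, SE 0.79, limma adjusted p = 0.0821). In limma 0 of 10 members passed, as did 0.257% of all genes, and 7 members and 2957 genes had an unadjusted p under 0.05. By the study's threshold 7 members were higher, where 3.78% of all genes were, and groups did not overlap for 6 (Myh7, Tnnc1, Tnnt1, Myl2, Myl3 and Atp2a2), where 14.5% were higher without overlap. Without library 2 of CTX 30 DPI, Myh7 (4.20) and Myl3 (3.92) passed, with limma adjusted p of 0.0452 and 0.0420. In that refit 0.821% of all genes passed as higher, against 0.0428% with all libraries. Without library 3 of CTX 2 DPI, 0 members and 31 genes passed, and Myh7 was at 3.54 (limma adjusted p = 0.152). With library 3 of CTX-HC 30 DPI left out as well, 1139 genes passed, 460 higher and 679 lower, and 0 of them were members. Myh7 was then at 3.54 and Myl3 at 3.04 (limma adjusted p = 0.0548 and 0.0533).

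HC at day 30 made no difference that passed. The log2 fold changes for CTX-HC 30 DPI against CTX 30 DPI lay between -0.05 (Atp2a2) and 0.82 (Tnni1), with standard errors of 0.55 to 1.01 and overlap for all 10 members. For Myh7 it was 0.12 (SE 0.86, limma adjusted p = 1.00), and without library 3 of CTX-HC 30 DPI it was -0.02. In limma 0 members passed (0% of all genes), and 0 members and 106 genes had an unadjusted p under 0.05. The difference between the HC effect at day 30 and that at day 2 was tested as an interaction. It was 4.10 for Myh7 (SE 1.22, unadjusted p = 0.00501) and 3.21 for Tnnt1 (SE 0.92, unadjusted p = 0.00399), and 0 members passed in limma (0% of all genes, smallest adjusted p 0.999), with 4 members and 355 genes at an unadjusted p under 0.05. Without either library that stood apart the interaction was 4.15 for Myh7, and 0 members and 0 genes passed in limma.

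Within a library, the share of Myh7 among adult myosin heavy chains does not depend on scaling. Values were divided by coding length, and the share is Myh7 as a percent of Myh7, Myh2 (type IIA), Myh1 (type IIX) and Myh4 (type IIB). It was 0.0164%, 0.0293% and 0.00565% in CTX-HC 2 DPI, 0.141%, 0.179% and 0.0858% in CTX 2 DPI, and 0.611%, 0.0476% and 0.0747% in C. At day 30 it was 2.84%, 0.367% and 2.92% in CTX-HC 30 DPI and 3.29%, 0.535% and 0.891% in CTX 30 DPI. All CTX-HC 2 DPI libraries were below those of every other group, and the day 30 groups overlapped C only through library 1 of C. Myh4 made up 54.5% to 95.6% of these transcripts in all 15 gastrocnemius libraries.

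**Figure D3:**
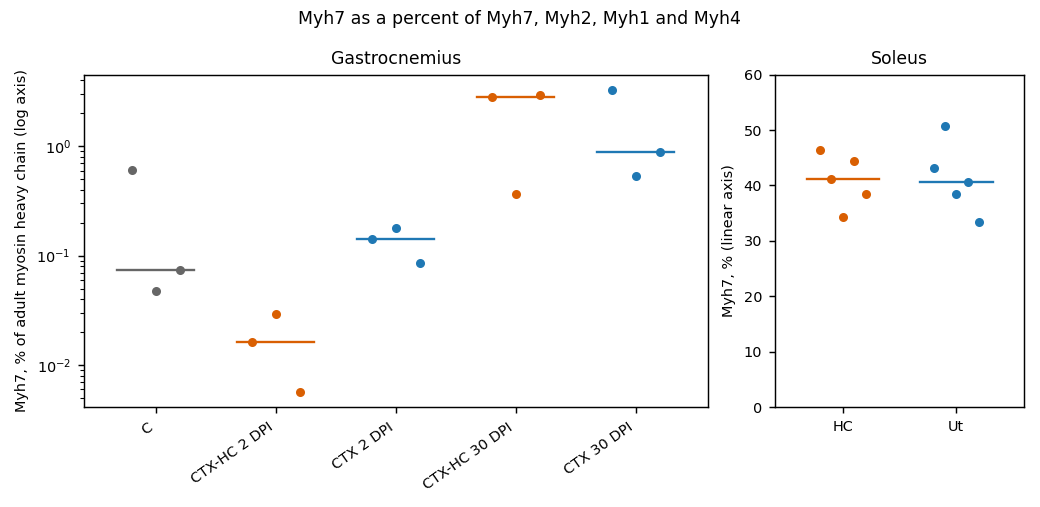
Myh7 as a percent of the 4 adult myosin heavy chains per coding length, in each library of gastrocnemius (left, log axis) and soleus (right, linear axis), with bars at group medians. Gastrocnemius libraries ran from 0.00565% to 3.29% and soleus libraries from 33.5% to 50.8%.

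Slow isoforms were next set against their fast counterparts in the same library, again per coding length, as a description with no test. The pairs were Myh7 and Myh4, Tnnc1 and Tnnc2, Tnnt1 and Tnnt3, Tnni1 and Tnni2, Myl2 and Mylpf, Myl3 and Myl1, Tpm3 and Tpm1, and Atp2a2 and Atp2a1. Tnnc1 was 2.24% to 13.5% of its pair in CTX-HC 30 DPI and 1.43% to 12.9% in CTX 30 DPI, against 0.310% to 1.69% in C. Tnni1 was 1.17% to 14.8% of its pair in CTX-HC 30 DPI and 0.916% to 5.12% in CTX 30 DPI, against 0.390% to 1.97% in C. Against C at day 30, 1 of the 8 slow to fast ratios was higher without overlap in CTX-HC 30 DPI and 1 was in CTX 30 DPI, and the other 7 overlapped C in each. In CTX-HC 30 DPI against CTX-HC 2 DPI, 6 of the 8 were higher without overlap, and in CTX 30 DPI against CTX 2 DPI 3 were. In CTX-HC 2 DPI against CTX 2 DPI 2 of the 8 were lower without overlap, and against C 1 was. The pairs of Tpm3 and Atp2a2 were not lower at day 2, with Tpm3 at 2.94% ± 2.05 of its pair in CTX-HC 2 DPI, against 0.576% ± 0.484 in C, and Atp2a2 at 1.25% ± 0.672, against 0.582% ± 0.357 in C (SD, n = 3 each). Both pairs overlapped between the groups. Tpm3 and Atp2a2 were also present in liver and in AML12 mouse hepatocytes, as given below. The part of cells other than muscle fibers in these pairs was not tested.

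**Figure D4:**
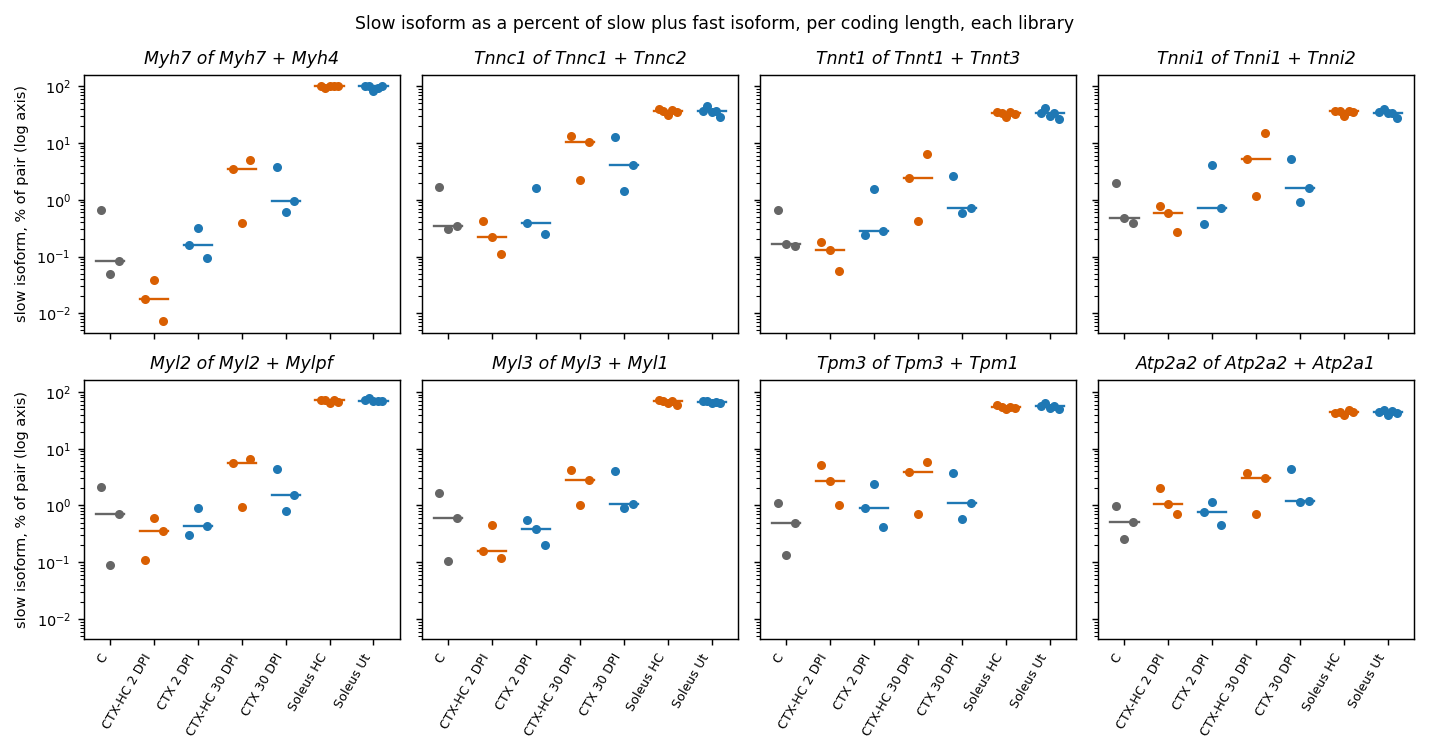
Slow isoform as a percent of slow plus fast isoform (log axis, per coding length) in each library of the 5 gastrocnemius and 2 soleus groups, with bars at group medians. Tnnc1 was 0.310% to 1.69% of its pair in C and 29.1% to 44.2% in soleus Ut.

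In soleus the slow genes were abundant in all 10 libraries and no difference with HC passed the test. Myh7 had 133241, 135005, 113076, 133930 and 113566 in HC, against 132515, 157996, 123443, 148354 and 95572 in Ut. The groups overlapped fully, with a log2 fold change of -0.05 (SE 0.14, limma adjusted p = 0.999). Its share of adult myosin heavy chain was 40.9% ± 4.79 in HC and 41.3% ± 6.40 in Ut (SD, n = 5 each; difference -0.36 percentage points, two-sided exact permutation p = 0.929). The smallest p this test can give is 0.00794. In limma 0 of 10 members passed (0% of 12067 genes), and 0 members and 609 genes had an unadjusted p under 0.05. A p that misses the threshold does not show that the groups were alike.

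The other members had log2 fold changes between -0.14 (Atp2a2, SE 0.10) and 0.40 (Csrp3, SE 0.24), with overlap for all. Csrp3 had 9497, 12740, 13074, 10265 and 8676 in HC, against 9295, 5893, 6923, 5725 and 16034 in Ut, and library 5 of Ut was the highest of all 10. Atp2a2 had 80557, 85530, 71825, 86877 and 73904 in HC, against 89688, 95905, 78477, 93415 and 83231 in Ut. Library 1 of HC was the highest of its group for 6 members, and library 1 of Ut was for 6. Myh4 marked a further difference among libraries that followed no group, with 845, 12995, 714, 1270 and 396 in HC and 456, 588, 28708, 10415 and 367 in Ut.

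**Figure D5:**
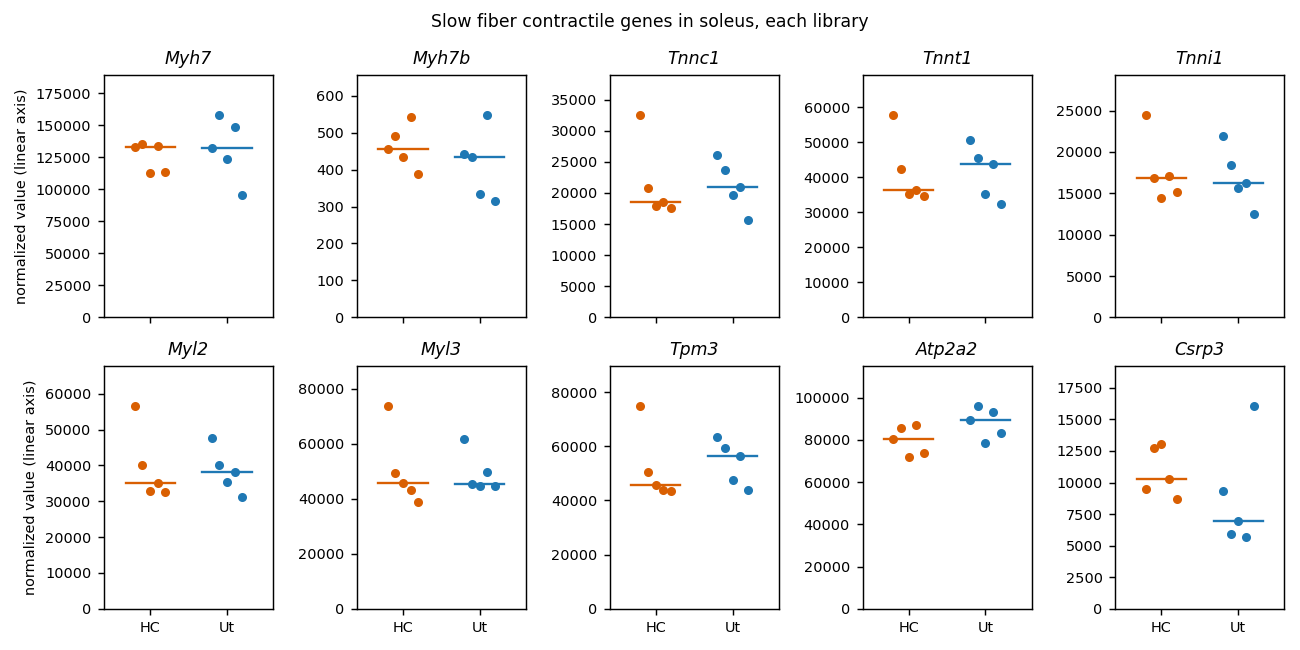
Normalized values (linear axes from 0) of the 10 genes in each soleus library of the HC and Ut groups, with bars at group medians. Points of both groups overlap in every panel, and library 1 of HC (the leftmost point) is at 32534 for Tnnc1, where the others of its group lie between 17607 and 20723.

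The 2 muscles were normalized in separate tables, so their levels are set side by side only as ranges. Per kb of coding sequence, the order of medians in soleus was Myl3 (74210), Myl2 (69574), Tpm3 (57188), Tnnt1 (50211), Tnnc1 (41864), Tnni1 (29476), Atp2a2 (26941), Myh7 (22890), Csrp3 (16144) and Myh7b (75.3). Neighbours in this order had overlapping ranges except for the last pair, where the lowest value of Csrp3 (9836) was above the highest of Myh7b (94.1). Over the 15 gastrocnemius libraries the highest normalized value of Myh7 was 1063 times the lowest and that of Atp2a2 11.9 times, whereas in soleus the highest was at most 2.80 times the lowest for any member (Csrp3). In liver (10 libraries) and in AML12 mouse hepatocytes (24 libraries), which should lack fast and slow sarcomeres, Myh7 was at most 3.91 and 1.55. Tpm3 and Atp2a2 were present there, at 600 to 794 and 2313 to 3962 in liver and at 6789 to 11242 and 4537 to 6980 in AML12, and Csrp3 was at 119 to 295 in liver.

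Wider lists of the same biology were counted beside the members. Of 19 tested genes that accompany slow sarcomeres (Strit1 was not in the table), 0 passed in CTX-HC 2 DPI against C. In CTX-HC 30 DPI against CTX-HC 2 DPI 1 rose, where 4.20% of all genes did. It was Fabp3, a fatty acid binding protein (1.73, SE 0.51, limma adjusted p = 0.0496). On the pan-muscle scale Fabp3 was at 0.86 (limma adjusted p = 0.132). On that scale 4 of the 19 passed as higher in CTX-HC 2 DPI against C, where 7379 of 14033 genes did. In CTX-HC 30 DPI against CTX-HC 2 DPI, 2 of the 19 passed as lower on that scale, where most calls over all genes were lower. Of 16 fast contractile genes, 5 fell in CTX-HC 2 DPI against C, where 4.59% of all genes did. They were the calcium buffer Pvalb (-1.77), the calcium store protein Casq1 (-1.63), Myoz1 (-1.60), the myosin kinase Mylk2 (-1.57) and Actn3 (-1.57), and the list median was -1.47 beside -2.05 for the slow members and 0.02 for all genes. On the pan-muscle scale 4 of the 16 passed as lower, where nearly all calls over all genes were higher. They were Pvalb (-0.76), Casq1 (-0.63), Myoz1 (-0.59) and a further gene, and Mylk2 and Actn3 did not pass (limma adjusted p = 0.0526 and 0.0593). In CTX-HC 30 DPI against CTX-HC 2 DPI, 3 of the 16 rose, where 4.20% of all genes did. They were Casq1 (1.61), Pvalb (1.40) and Mylk2 (1.23), and on the pan-muscle scale Mylk2 was lost (0.36, limma adjusted p = 0.207). Of 9 developmental contractile genes, Actc1, the cardiac actin used early in skeletal fibers, fell at day 2 with HC against C (-2.85, SE 0.72) and was higher by day 30 with HC (3.31, SE 0.72). On the pan-muscle scale these were -1.84 (limma adjusted p = 0.0592) and 2.44 (limma adjusted p = 0.0295). On that scale 1 other of the 9 passed as lower in CTX-HC 30 DPI against CTX-HC 2 DPI, again where most calls over all genes were lower.

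Of 27 regulators of slow gene expression, 4 passed as lower in CTX-HC 2 DPI against C with the deposited scaling, where 4.59% of all genes did, and 0 of these 4 with the pan-muscle scaling. They were Sox6, a repressor of slow genes in mouse muscle (-1.12), the calcineurin subunits Ppp3ca (-1.02) and Ppp3r1 (-0.82), and Six4, a homeobox factor of the fast program (-0.88). On the pan-muscle scale their log2 fold changes were -0.11, -0.02, 0.19 and 0.12 in the same order, so that the sign turned for Ppp3r1 and Six4, and 8 other regulators passed as higher, where 52.6% of all genes did. In CTX-HC 30 DPI against CTX-HC 2 DPI, 3 passed as higher, where 4.20% of all genes did, and 1 as lower. The higher ones were Prox1, a homeobox factor of slow fibers (1.83), Six4 (0.85) and Nfatc1, a target of calcineurin (0.72), and Tead4, which binds MCAT elements, fell (-1.07). On the pan-muscle scale none of those 3 passed, with Prox1 at 0.96, Six4 at -0.02 and Nfatc1 at -0.15, whereas Tead4 and 5 other regulators passed as lower, where 37.5% of all genes did. Tead4 also fell in CTX 30 DPI against CTX 2 DPI (-1.31, limma adjusted p = 0.0441), a call that was lost on the pan-muscle scale (-1.63, limma adjusted p = 0.143). In limma, 0 genes of these 4 lists passed in CTX 2 DPI against C, in either comparison with C at day 30, between HC and no HC at either day or in soleus. The 4 lists held 71 tested genes in gastrocnemius, where 14033 genes were tested in all, and 68 in soleus, where 12067 were. Counts at an unadjusted limma p under 0.05 follow, with those over all genes in parentheses. They were 5 (2095) in CTX 2 DPI against C, 1 (388) in CTX-HC 30 DPI against C and 0 (437) in CTX 30 DPI against C. Between HC and no HC they were 12 (1005) at day 2, 1 (106) at day 30 and 3 (609) in soleus.

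The genes most like Myh7 across the 15 gastrocnemius libraries were found by the root mean square difference of log2 values centred on each gene's mean, over 14033 tested genes. The 5 nearest were all members, Tnnc1 (0.996), Tnnt1 (1.18), Myl3 (1.26), Myl2 (1.29) and Tnni1 (1.51). The nearest genes outside the list were Tecrl (1.75), Actc1 (1.93), Pclo (1.95), Klhl33 (1.96) and Col6a6 (1.97). Of the other members, Myh7b was at rank 8, Atp2a2 at 24, Tpm3 at 158 and Csrp3 at 13151 of 14032. Tecrl, a reductase-like gene of heart and skeletal muscle, had 71.2, 2.86 and 7.40 in CTX-HC 30 DPI and 60.9, 2.19 and 25.5 in CTX 30 DPI. It had 3.68, 0 and 2.54 in C, 0, 0 and 1.28 in CTX 2 DPI, and 0 in all CTX-HC 2 DPI libraries. Tecrl thus reached the minimum of the filter on low values only in day 30 libraries (71.2, 60.9 and 25.5). It entered the ranking through groups in which Myh7 was high, and how far the filter set its place was not tested. The libraries share their processing, and likeness over them says nothing of shared control.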

How the data were processed

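RNA-seq of mouse muscle was re-analysed from deposited tables. Per the study's methods, trimming used FASTQ toolkit 1.0.0. Alignment was by STAR within RNAseq Alignment 2.0.2, on the UCSC mm10 build. The authors scaled gene counts with DESeq2. The labels give an rRNA depletion kit for soleus, whereas the methods give an mRNA kit for all samples. The authors deposited these counts per gene after median-of-ratios scaling, here a signal that is not whole, so reads were not recovered and no count model was run (27% to 79% of low values were whole within 0.05 reads). Values were tested as log2(value + 1) with limma 3.58.1 (trend), in R 4.3.3, after keeping genes at 10 or more in as many libraries as the smallest group, with 1 fit for the 5 gastrocnemius groups and 1 for soleus. The myosin share was tested by exact permutation. Positions and coding lengths came from GENCODE on GRCm38. Genes named were all members, their fast counterparts, up to 2 largest rises and falls per list (all, where 5 or fewer were called, a choice made after values were seen) and the 5 genes most like Myh7. Members and lists were chosen with earlier results of these data known. Scripts were tested on simulated data. Whether the soleus replicate numbers pair mice was checked, and they were not used as pairs. Alternatives were other pseudocounts, filters, scalings, thresholds, library numbers and leaving out each library, and leaving out both libraries that stood apart. That last choice, and the pan-muscle scaling of the wider lists, were made after the data were seen.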

Additional observations from a re-analysis of the deposited data

Results flagged for a closer look

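In soleus, 38 sets of 5 libraries were looked over for a library far from the others of its group, and 5 held one. Chance gives about 1 in 20 such sets when they are independent. These sets share the same libraries, so 5 of 38 is not a test against that rate. Library 1 of HC was far above the other HC libraries for Tnnc1 (32534), the slow troponin C, for Tnni1 (24467), the slow troponin I, and for Tpm3 (74748), the slow tropomyosin. The same library had the lowest macrophage marker sum of its group (156), and the part of this in its values was not tested. For the share of Myh7 in Myh7 plus Myh4, library 2 of HC was far below its group, at 91.2%. This library had 12995 for Myh4, where the other HC libraries had 396 to 1270. For the share of Myl2 in Myl2 plus Mylpf, 1 library of Ut was far above its group, at 79.1%. Removing the HC or Ut libraries in turn left 0 slow genes called in soleus. Groups of 3 gastrocnemius libraries are too small for this check.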

How the results depend on the processing

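No called member changed direction. Of the values for single members under the alternatives, 1524 kept their side of the threshold (92 of them, all uncalled, with the sign turned), 39 newly passed and 32 no longer passed. Of the 39, 33 passed at the study's unadjusted threshold. These counts leave out Myh7 in soleus, in both day 30 groups against C and between the day 30 groups. The number of members called in CTX-HC 2 DPI against C was 3, and it was 5 with quantile normalization, 6 at the study's threshold and 0 to 2 without 1 library, and Myl3 no longer passed with no filter (limma adjusted p = 0.0540), nor Tnnt1 with the library number series as a covariate (limma adjusted p = 0.0560). At the study's threshold, which is not adjusted for the number of genes, it was 4 in CTX-HC 2 DPI against CTX 2 DPI, 8 in CTX 30 DPI against C (with Myh7 at 3.28), 9 in CTX-HC 30 DPI against C (with Myh7 at 3.40), 7 in CTX 30 DPI against CTX 2 DPI and 4 for the interaction. Over all 14033 genes, the study's threshold was met in either direction by 2594 in CTX-HC 2 DPI against C and by 178 for the interaction. For CTX-HC 30 DPI against CTX-HC 2 DPI the number of members called was 8, then 4 in a fit of those 2 groups alone and 6 to 8 without 1 library. For CTX 30 DPI against CTX 2 DPI it was 0 to 2 without 1 library. The cause of these changes was not tested. All genes called in CTX-HC 2 DPI against C numbered 1393, then 2321 with quantile normalization, 942 with no filter, 4307 in a fit of those 2 groups, 232 with the library number series as a covariate and 33 to 2136 without 1 library. In CTX-HC 30 DPI against CTX-HC 2 DPI they numbered 1367, then 24 in a fit of those 2 groups, 5317 with the pan-muscle scaling (52 higher and 5265 lower), 2070 with quantile normalization and 160 to 5064 without 1 library (the highest without library 3 of CTX-HC 30 DPI). Without 1 library, the Myh7 log2 fold change was 2.73 to 4.30 for CTX 30 DPI against C, 2.81 to 4.43 for CTX-HC 30 DPI against C, -0.47 to 0.85 for CTX-HC 30 DPI against CTX 30 DPI and -0.16 to 0.02 in soleus. Without either library that stood apart, 8 members passed in CTX-HC 30 DPI against CTX-HC 2 DPI, where 17.5% of all genes rose, against 4.20% with all libraries. In soleus, same-numbered libraries had correlations of -0.11 to 0.40, so they were not taken as pairs, and with the replicate block 0 members were called (Myh7 -0.05, limma adjusted p = 0.968) and the exact p for the myosin share was 0.875. With 3 libraries a group, the gastrocnemius standard errors of 0.55 to 1.01 limit what could be detected.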
